A study of Auxenochlorella pyrenoidosa with 18 samples.

Results

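Symmetric phase 1-1 exons are internal coding exons that have a phase 1 intron on either side, so that the exon begins and ends after the first base of a codon. In the predicted gene models of the green alga Auxenochlorella pyrenoidosa, 5819 exons met the rule, which took internal coding exons of 31 to 499 bases from the transcript with the longest coding sequence of each gene. They made up 8.10% of the 71864 internal coding exons within these length bounds (95% Wilson interval 7.90 to 8.30%), against 18107 exons (25.2%) of phase 0-0 and 3642 exons (5.07%) of phase 2-2. The 1-1 exons lay in 3294 genes, which is 34.2% of the 9618 genes with an internal coding exon in the bounds.

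The series followed strain FACHB-9, grown on glucose and urea and then, once the glucose was used up, diluted and moved to light. It holds 18 libraries in 6 groups of 3, namely heterotrophic cells at 0, 24 and 72 h and phototrophic cells at 2, 8 and 24 h. Library values were not analysed here, so no level of expression and no difference between these groups is given, and the depth is unknown. The values describe 1 set of gene models predicted by AUGUSTUS, with 10284 genes on 1231 scaffolds.

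The phase of an intron is its place within a codon: phase 0 introns lie between codons, phase 1 introns after the first base of a codon and phase 2 introns after the second. An exon with the same phase on both sides has a length that is a multiple of 3, and it can be lost, gained, copied or skipped without a shift of the reading frame downstream. Exons of the 1-1 class are known from animals, where they encode many of the modules of secreted and cell surface proteins, such as the EGF-like, immunoglobulin and fibronectin type III modules. Tandem copying of such an exon leaves a row of 1-1 exons of equal length, as long as neither copy has gained or lost codons. No genome sequence was used here, so the exons are described by position, length and phase, and no sequence is shown.

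The rule fixed the phase and the length bounds, so neither is a result, and all 5819 exons had a length that is a multiple of 3 by construction. The phase deposited for a coding segment went with the summed coding length before it for all 85135 coding introns. Leaving the bounds aside, there were 6131 exons of phase 1-1, of which 108 were shorter (down to 6 bases) and 204 longer (up to 3048 bases). At the lower bound, 17 exons of 30 bases stayed out and 21 of 33 bases were taken in. At the upper bound, 3 exons of 498 bases were taken in and 2 of 501 bases stayed out. Complete models, with a start and a stop codon, held 94.0% of the 1-1 exons.

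Phase 1-1 exons were about as frequent as the phase 1 introns of their own genes gave by order alone. Phase 1 introns made up 28.0% of all coding introns, and if phases were drawn from one pool for all genes, 5624 exons of phase 1-1 would have been expected, so that the observed number was 1.03 times the expected one. When the phases of each gene were instead placed in every possible order within that gene, the expected number was 5921, which is 102 more than observed, and the ratio was 0.983. On the 27 scaffolds with at least 100 genes the ratio was 0.989 ± 0.0800 (SD, n = 27), from 0.843 to 1.23, and it lay above 1 on 11 and below 1 on 16 of them. The departure from 1 was therefore smaller than the spread between scaffolds, and no excess of 1-1 exons within genes was seen.

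The other symmetric classes gave like ratios. Within genes the ratio was 0.995 for 0-0 exons and 0.973 for 2-2 exons, with values per scaffold of 0.989 ± 0.0335 and 0.972 ± 0.0720 (SD, n = 27 each). With pooled phases these ratios were 1.02 and 1.02. The ratio of 1-1 exons exceeded that of 0-0 exons on 13 scaffolds and fell short of it on 14, a mean difference of -0.000392 ± 0.0703 (SD, n = 27). Against 2-2 exons the mean difference was 0.0162 ± 0.116, with 14 scaffolds higher and 13 lower. The difference between classes was thus within the spread between scaffolds in either comparison.

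**Figure D1:**
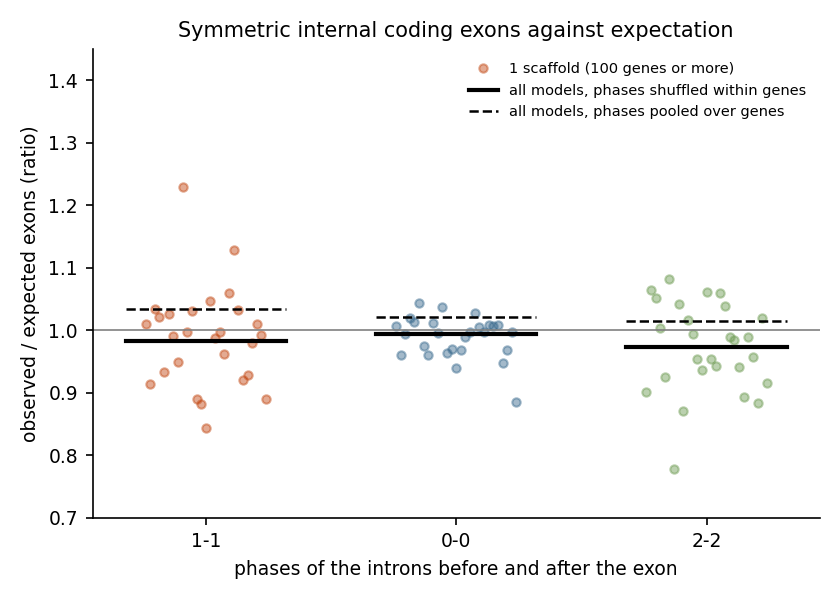
Observed over expected number of symmetric internal coding exons, by the phases of the introns before and after the exon. Points are the 27 scaffolds with at least 100 genes (phases placed in every order within genes), solid lines are all models by the same expectation, and dashed lines are all models with phases pooled over genes: the 1-1 line lies at 1.03 pooled and at 0.983 within genes.

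Introns of phase 1 that lie further apart in a gene gave ratios near 1 as well. Over exons of any length the ratio for 2 phase 1 introns that bound 1 exon was 0.990. It was 1.01 for introns 2 apart, 1.03 for introns 3 apart and 1.01 for introns 4 apart. From 5 to 12 apart it stayed between 0.984 and 1.01. The highest ratio was that of introns 3 apart, with 4870 pairs against 4705 expected. At this distance the ratio was 1.01 for phase 0 and 1.03 for phase 2 introns. The spread between scaffolds was not computed for these ratios.

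Among 1-1 exons the short ones were fewer and the long ones more numerous than the gene's own phases gave. At 31 to 60 bases, 534 exons of phase 1-1 stood against 620 expected, a ratio of 0.861. The ratio was 0.960 at 61 to 90 bases, 0.980 at 91 to 120 bases, 1.03 at 121 to 150 bases and 1.00 at 151 to 200 bases. It reached 1.05 at 201 to 300 bases and 1.08 at 301 to 499 bases, where 262 exons stood against 242 expected. Exons of phase 0-0 went the other way, from 1.06 in the shortest to 0.921 in the longest of these bins, and those of phase 2-2 showed no steady course, with 1.10 and 0.965 there.

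The same course shows in plain shares. Of the internal exons of 31 to 60 bases, 7.24% were 1-1 (95% Wilson interval 6.67 to 7.85%), and of those of 301 to 499 bases 9.29% were (8.27 to 10.4%). These intervals did not overlap, although they count exons as independent, and exons of 1 gene are not. Counted among symmetric exons alone, where lengths are multiples of 3 in every class, the 1-1 share went from 18.5% (17.13 to 19.96%) to 25.2% (22.6 to 27.9%) between these bins.

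The length course varied between scaffolds by more than its mean size. For exons of at least 121 bases the 1-1 ratio was 1.03 and for those of up to 90 bases 0.931, and the former was the higher on 19 of the 27 scaffolds and the lower on 8, with a mean difference of 0.0925 ± 0.196 (SD, n = 27). For 0-0 exons the longer ones had the lower ratio on 19 of 27 scaffolds, with a mean difference of -0.0519 ± 0.109. The long-minus-short difference was larger for 1-1 than for 0-0 exons on 20 of 27 scaffolds, by 0.144 ± 0.225 on average. Against 2-2 exons it was larger on 17 of 27, by 0.0993 ± 0.266.

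**Figure D2:**
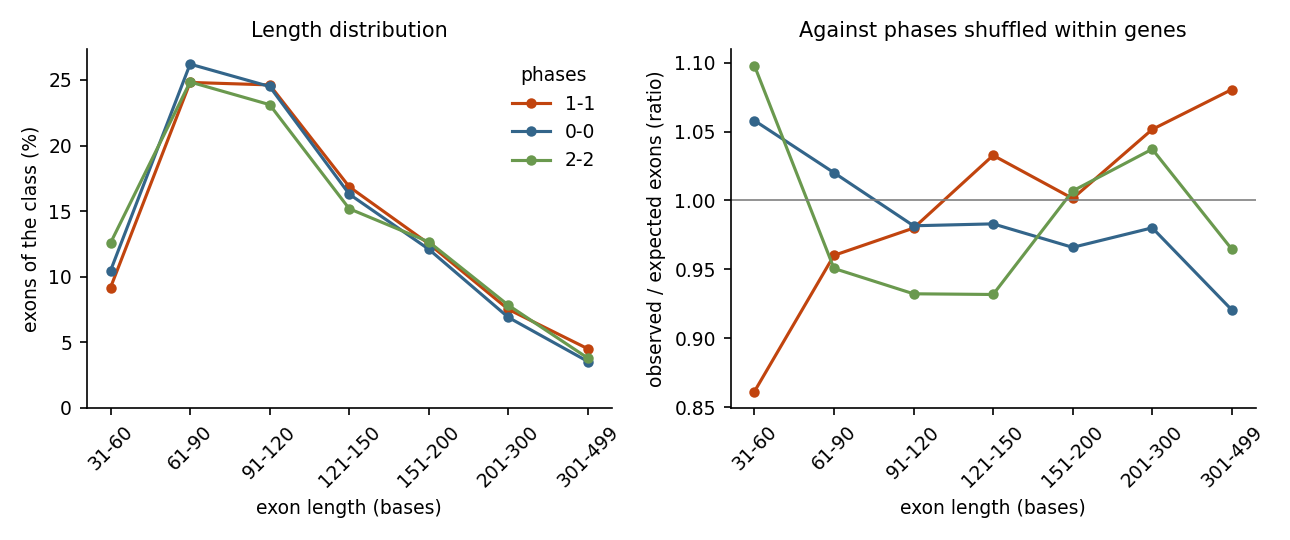
Left, the share of each class of symmetric exons (percent, from 0) in 7 bins of exon length; right, observed over expected number in the same bins with phases placed in every order within genes. The 1-1 line on the right goes from 0.861 in the shortest to 1.08 in the longest bin, and the 0-0 line from 1.06 to 0.921.

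In typical length the classes hardly differed. The median 1-1 exon measured 111 bases, or 37 codons, with quartiles of 81 and 150 bases, and 90% of the exons measured 54 to 291 bases. The median was 108 bases for both 0-0 and 2-2 exons, and 107 bases for the 44296 exons with unequal phases. Per scaffold the 1-1 median exceeded the 0-0 median on 16, equalled it on 2 and fell short of it on 9 of 27 scaffolds, a difference of 3.22 ± 8.16 bases (SD, n = 27), which is within the spread. The most frequent length of 1-1 exons was 111 bases (170 exons, 2.92%, 95% Wilson interval 2.52 to 3.39%), followed by 93 bases (161 exons) and 81 bases (160 exons). Exons of 0-0 and 2-2 phase were most often 78 and 102 bases long, with 562 and 111 exons. The share of lengths that are multiples of 9 was 34.1% for 1-1 exons (32.9 to 35.3%), 32.6% for 0-0 exons (31.9 to 33.3%) and 33.1% for 2-2 exons (31.6 to 34.7%), with overlapping intervals.

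Most genes with 1-1 exons held a single one. Of the 3294 genes, 1950 had 1 such exon, 740 had 2, 316 had 3, and 136 had 5 or more. These genes were rich in introns, with a median of 10 coding introns. The median was 5 in the genes with an internal exon in the bounds but none of phase 1-1. The other classes gave the same picture, with medians of 8 against 4 for 0-0 exons and 11 against 6 for 2-2 exons. A gene with more internal exons has more places where the rule can be met. The 5 genes with the most were g1272 with 20, g257 with 17, g9687 with 15, g5402 with 12 and g3986 with 11, and g7835 tied with g3986 at 11. The phases of the first 5 gave expected numbers of 15.5, 16.8, 13.3, 12.6 and 9.50. Models g1272 (scaffold00092, 1186646 to 1227739, minus strand), g257 (scaffold00012, 1325196 to 1356249, minus strand) and g5402 (scaffold00760, 18156 to 58620, minus strand) have 74, 85 and 64 coding exons. In these large models most 1-1 exons stood in short runs spread along the coding sequence, with longest runs of 3, 3 and 5 within the length bounds. Counting exons of any length, the longest run of g5402 was 7.

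Exons of phase 1-1 often stood next to each other, though no more often than the phases of their genes gave. Runs of 2 or more neighbouring 1-1 exons numbered 1074 in 971 genes and held 2572 of the 5819 exons, a share of 44.2% (95% Wilson interval 42.9 to 45.5%). Of the runs, 789 had 2 exons, 198 had 3, 58 had 4 and 29 had 5 or more, up to 10. Neighbouring pairs numbered 1498 against 1535 expected from all orders of the gene's phases, a ratio of 0.976. On the 27 scaffolds this ratio was 1.02 ± 0.153 (SD, n = 27), above 1 on 14 and below 1 on 13. For 0-0 exons, 67.7% stood in runs and the ratio was 0.990, and for 2-2 exons 36.4% did and the ratio was 0.976.

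The longest runs were few. Model g7835 (scaffold01012, 2906655 to 2912190, minus strand) held a run of 10, g3986 (scaffold00514, 1617929 to 1627320, plus strand) and g9687 (scaffold01246, 817476 to 825769, minus strand) runs of 9, g6104 (scaffold00893, 81246 to 86722, plus strand) a run of 8 and g26 (scaffold00009, 118056 to 122570, plus strand) a run of 7. Model g9048 also held a run of 7 and comes after g26 in file order. In g6104 the run took exons 2 to 9 of 11 coding exons, counted from the start of the coding sequence, with lengths of 90, 162, 156, 159, 144, 93, 213 and 135 bases. All 8 differ in length, so the run of g6104 shows no row of equal exons. In g9687 the run took exons 11 to 19, with lengths of 147, 114, 132, 99, 111, 99, 258, 132 and 276 bases, in which 132 and 99 each occur in 2 places. A second run of 6 in the same model, exons 3 to 8, held another exon of 132 bases among lengths of 45 to 306 bases.

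In model g3986 a unit of 3 exon lengths occurred 3 times in a row. Whether these exons are copies in sequence was not tested. Its exons 13 to 21 measured 87, 66 and 75 bases, then 87, 66 and 75 bases, and again 87, 66 and 75 bases, which is 29, 22 and 25 codons per unit. The introns after these exons did not share their lengths. Those after the 87-base exons measured 234, 216 and 241 bases, and those after the 66-base exons 276, 257 and 212 bases. Those after the 75-base exons measured 152, 141 and 136 bases, of which the last lies behind the third unit, before exon 22 of 131 bases. The intron after the 75-base exon was the shortest of each unit. Each of the 9 exons carried an AUGUSTUS score of 1, a number the authors deposited without a description. The score of the whole gene was 0.07, against a median of 0.08 over genes with a 1-1 exon. The exons lie between bases 1624535 and 1626947.

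Model g26 held a row of equal single exons in place of a repeated unit. Its exons 2 to 6 each measured 123 bases (41 codons), exon 7 measured 246 bases, the length of 2 such exons, and exon 8 measured 120 bases, 1 codon less. The introns between the 5 equal exons measured 212, 183, 148 and 185 bases, so they were not equal. This row, at bases 118450 to 119792, was the longest stretch of equal neighbouring 1-1 exons in the annotation. Shorter rows of 3 were found in g1575 (scaffold00128, 1173044 to 1178577, minus strand; 141 bases), g4210 (scaffold00557, 57836 to 65910, minus strand; 69 bases) and g8296 (scaffold01136, 857745 to 862276, minus strand; 57 bases). In g8296 the intron before the row measured 206 bases and those within it 204 and 205 bases, so exon and intron together recurred at nearly the same spacing. In g1575 the introns within the row measured 342 and 359 bases, and in g4210 they measured 194 and 214 bases. The lowest AUGUSTUS score of an exon in these rows was 0.58 in g8296, 0.75 in g4210 and 0.97 in g26, while all 3 exons of g1575 scored 1.

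Rows of equal neighbouring 1-1 exons numbered 31 in 31 genes, of which 27 had 2 exons. Of these 27, g445 (scaffold00012, 2365057 to 2370188, minus strand), the first in file order, had 2 exons of 96 bases with an intron of 140 bases between them. Exons in such rows were 54 to 165 bases long, and the introns within them 135 to 485 bases. Exons of phase 0-0 formed 166 such rows, 7 of them of 3 or more exons and up to 7, and those of phase 2-2 formed 13, none longer than 2. Runs of 1-1 exons in 2 models held a unit of 2 or more different exon lengths that occurred in full at least 2 times. These were g3986 and g9414 (scaffold01211, 1792717 to 1803015, minus strand), and in g9414 exons 17 to 20 measured 132, 75, 132 and 75 bases. Model g9414 lies outside the rule for named genes and was chosen after its values were seen. Such units of 0-0 exons were found in 3 models and of 2-2 exons in 0 models. Runs of 2 or more exons numbered 1074 for 1-1, 4342 for 0-0 and 579 for 2-2 exons.

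**Figure D3:**
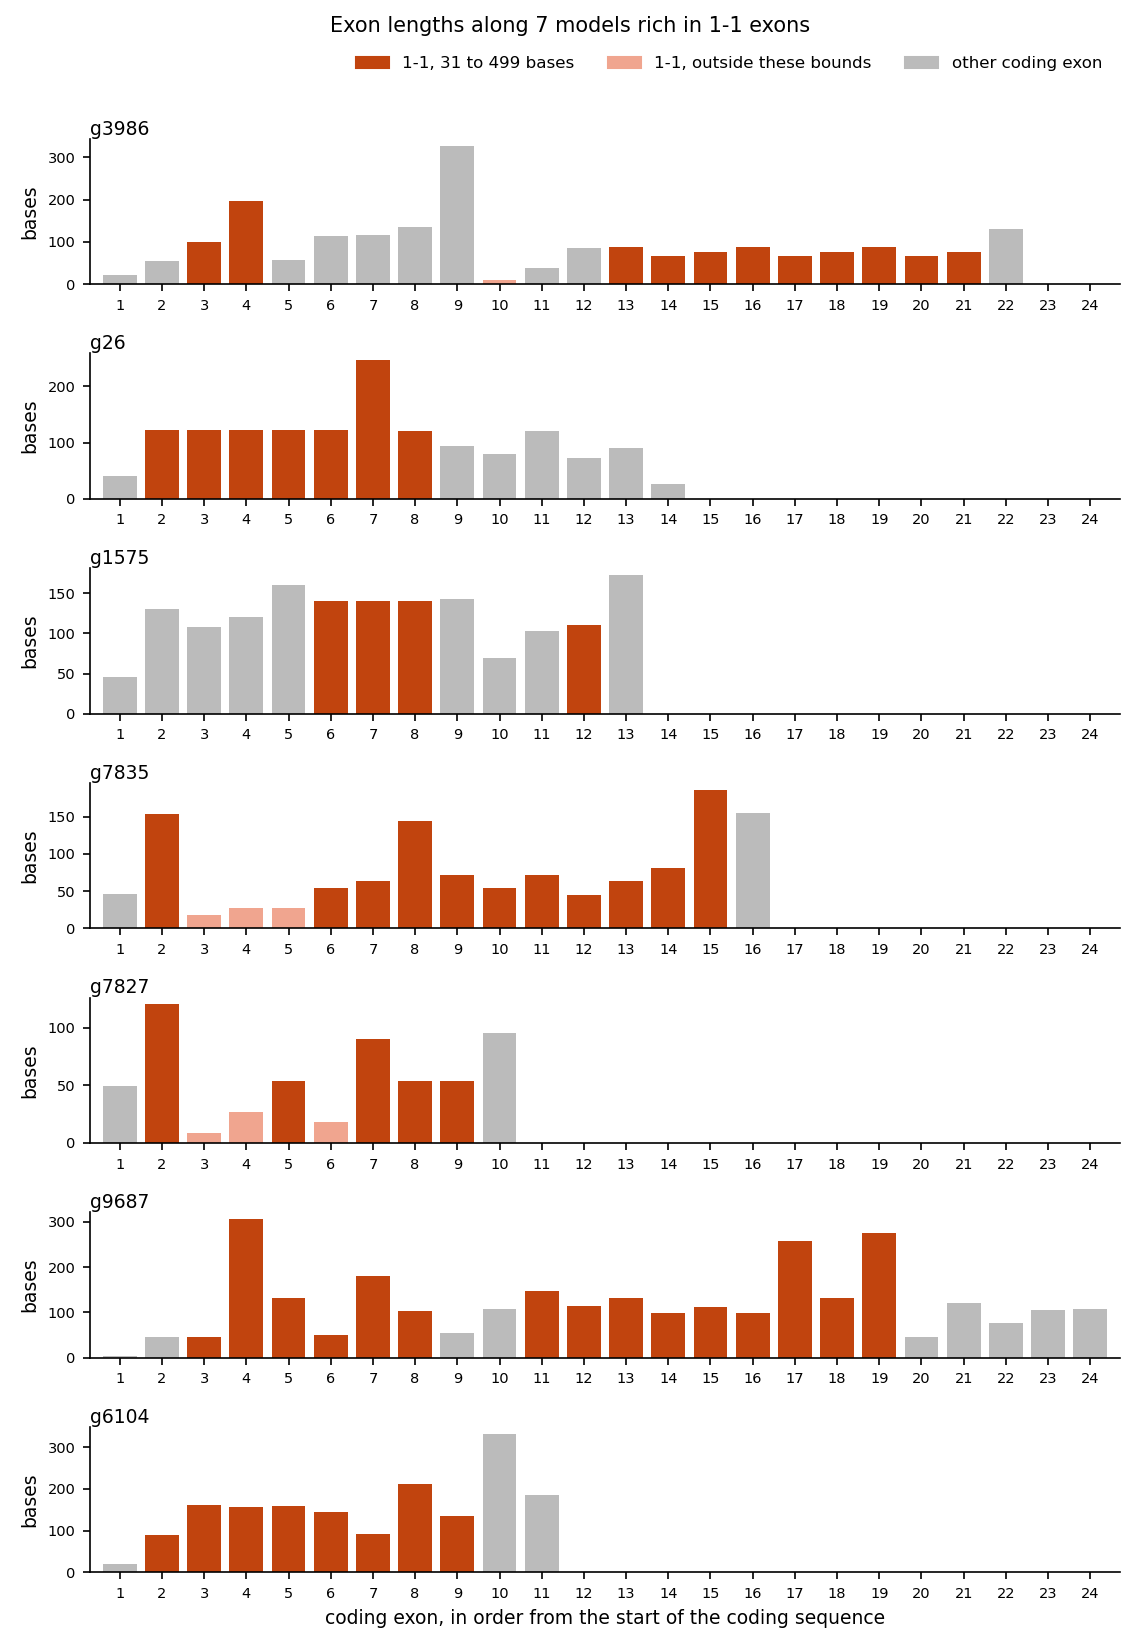
Length in bases (bars, from 0, each panel with its own scale) of every coding exon of 7 models, in order from the start of the coding sequence. Dark bars are 1-1 exons of 31 to 499 bases, light bars 1-1 exons outside these bounds, and grey bars all others. The unit of 87, 66 and 75 bases recurs 3 times in g3986, and 5 bars of 123 bases stand in a row in g26.

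Among the models rich in 1-1 exons, g7835 stood apart by its phases and its lengths. All 15 of its coding introns were of phase 1, so all 14 internal exons were 1-1, of which 11 lay in the length bounds. From exon 2 on, the internal exons measured 153, 18, 27, 27, 54, 63, 144, 72, 54, 72, 45, 63, 81 and 186 bases, and 13 of these 14 lengths are multiples of 9, the exception being 186. Counting exons of any length, its run of 14 was the longest run of 1-1 exons in the annotation. The longest run of 0-0 exons was 15, counted within the length bounds. Exon 12, of 45 bases, lay within an intron of another predicted transcript of this gene.

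A second model with the same features lay close by. Model g7827 (scaffold01012, 2852922 to 2860529, plus strand), which lies outside the rule for named genes and was chosen after its values were seen, ended 46125 bases before g7835 began, on the opposite strand, with 7 models between them. All 9 of its coding introns were of phase 1, and its 8 internal exons measured 120, 9, 27, 54, 18, 90, 54 and 54 bases, with 7 of 8 lengths a multiple of 9. Among the 3539 genes with at least 8 internal exons, g7835 (92.9%) had the highest share of lengths that are multiples of 9, and g7827 and g3661 shared the next (87.5%). This ranking favours genes whose introns share 1 phase, since an exon with unequal phases cannot have a length that is a multiple of 9. Within the length bounds, 34.1% of all 1-1 exons and 32.6% of all 0-0 exons had such a length. In g3661 (scaffold00479, 36647 to 40490, minus strand), also outside the rule, all 9 coding introns were of phase 0. AUGUSTUS gave the coding segments of g7827 scores of 1.83 to 2, and since these exceed 1 the scores cannot all be probabilities.

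Genes whose coding introns were all of phase 1 were rare. Of 6779 genes with at least 5 coding introns, 9 were of this kind (0.133%, 95% Wilson interval 0.0699 to 0.252%), while 111 had phase 0 throughout (1.64%, 1.36 to 1.97%) and 3 had phase 2 throughout (0.0443%, 0.0151 to 0.130%). The order of these counts is that of the phases among all coding introns, 28.0% phase 1, 49.7% phase 0 and 22.3% phase 2. No expected number of such genes was computed. After g7835 and g7827, the next of the 9 had 6 introns. The 15 introns of g7835 were the most in a gene of phase 1 throughout. The most were 17 for phase 0 and 6 for phase 2. Of genes with at least 8 internal exons in the bounds, the highest shares of 1-1 exons belonged to g7835 (100% of 11), g6104 (88.9% of 9), g9687 (68.2% of 22) and then g4897 and g4975 (62.5% of 8 each). In g4897 (scaffold00629, 1867117 to 1870850, minus strand) exons 2 to 6 measured 42, 72, 81, 87 and 132 bases. In g4975 (scaffold00661, 199395 to 203270, minus strand) exons 2 to 6 measured 129, 114, 342, 105 and 93 bases. Neither run held 2 exons of equal length.

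Pairs of 1-1 exons of the same gene had equal lengths more often than 1-1 exons of different genes. Of 5052 pairs within genes, 131 were equal, a share of 2.59% (95% Wilson interval 2.19 to 3.07%), against 1.75% of the 16922419 pairs from different genes. The within-gene share was 1.48 times the share between genes. Model g26 gave 10 and g3986 gave 9 of the 131 pairs, and without both the share was 2.25% (1.87 to 2.70%), or 1.29 times the share between genes. Equal pairs occurred in 91 of the 1344 genes with at least 2 such exons, and 74 of the 91 had a single equal pair. On the 27 scaffolds the share was 2.31 ± 1.52% (SD, n = 27), from 0 to 5.08%, and the counts per scaffold are small.

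The same held for the other symmetric classes. Within-gene pairs of 0-0 exons were equal in 2.33% (2.18 to 2.49%), against 1.82% between genes, a ratio of 1.28. For 2-2 exons the values were 3.18% (2.48 to 4.06%) and 1.70%, a ratio of 1.86, with 17 of the 61 equal pairs in g6811 and g6812. Without the top 2 genes of each class the ratios were 1.29 for 1-1, 1.23 for 0-0 and 1.37 for 2-2 exons, and the within-gene intervals of the 3 classes overlapped. By distance, the share for 1-1 exons was 2.47% for direct neighbours (1.80 to 3.39%), 3.80% for exons 2 apart (2.39 to 6.01%), 2.75% for exons 3 apart (1.54 to 4.86%) and 2.33% for exons at least 8 apart (1.70 to 3.19%). These intervals overlapped, so no fall with distance was detectable.

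**Figure D4:**
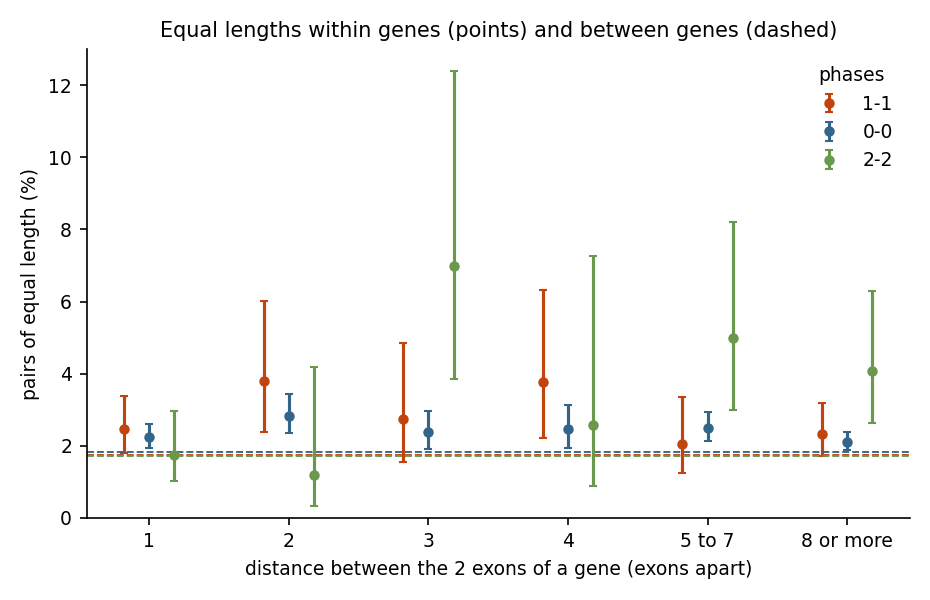
Share of within-gene pairs of symmetric exons with equal length (percent, from 0) by the distance between the exons, with 95% Wilson intervals that count pairs as independent. Dashed lines are the share for exons of different genes, between 1.70% and 1.82%. The 1-1 points lie between 2.05% and 3.80%.

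Exons of phase 1-1 were spread along the coding sequence. Their mean relative place was 0.494 ± 0.248 (SD, n = 5819), where 0 is the start and 1 the end of the coding sequence, against 0.492 for 0-0 and 0.497 for 2-2 exons. Per scaffold, the mean place of 1-1 exons lay nearer the end than that of 0-0 exons on 11 of 27 and nearer the start on 16, a difference of 0.000906 ± 0.0328 (SD, n = 27). With the coding sequence cut into 5 equal parts, the ratio to the expectation from the gene's phases was 0.941 in the first, 0.988, 1.01 and 1.00 in the next 3, and 0.954 in the last. Departures of this size were not limited to 1-1 exons, since the 2-2 ratio was 0.893 in the part after the first. The share of internal exons that were 1-1 was 7.72% in the first part (7.24 to 8.23%), 8.27% in the middle part (7.87 to 8.70%) and 8.02% in the last (7.50 to 8.57%), with overlapping intervals.

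The lowest value by order was that of the first internal exon. In 3996 complete models that had 8 or more coding introns, 3801 first internal exons lay in the length bounds. Of these 283 were 1-1 against 316 expected, a ratio of 0.894 and a share of 7.45% (6.65 to 8.32%). The second internal exon gave a ratio of 1.02 and a share of 8.41% (7.57 to 9.33%), and the last internal exon 0.956 and 7.96% (7.14 to 8.86%). The intervals of these shares overlapped. For 0-0 exons the ratio of the first internal exon was 0.999. Exons of phase 2-2 had low ratios at several places, with 0.940 for the first, 0.912 for the second and 0.901 for the second to last internal exon, so low values near the ends were not limited to 1-1 exons.

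**Figure D5:**
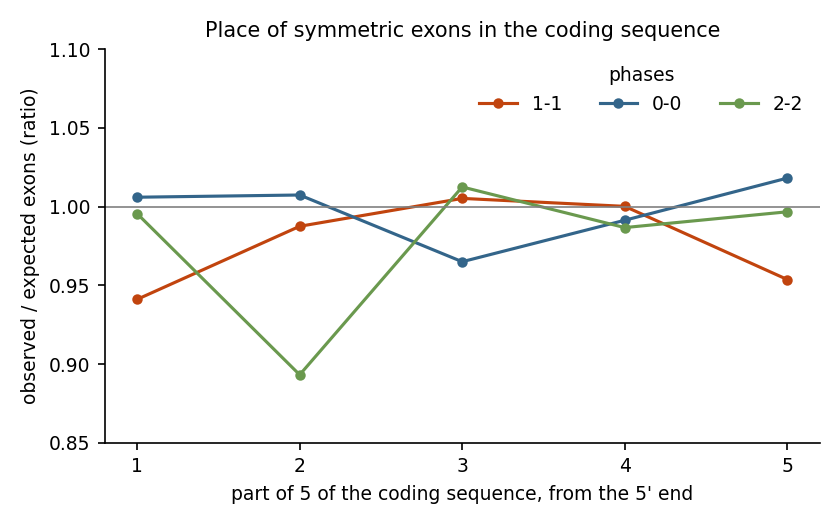
Observed over expected number of symmetric exons in each of 5 equal parts of the coding sequence, by class, with phases placed in every order within genes (the vertical axis does not start at 0). The 1-1 line runs from 0.941 in the first part to 1.01 in the middle and 0.954 in the last.

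Introns beside 1-1 exons were slightly shorter than those beside 0-0 exons. The median intron measured 204 bases before and 205 bases after a 1-1 exon, against 212 and 214 bases for 0-0 exons and 207.5 and 210 bases for 2-2 exons. Taking the introns before and after together, the median beside 1-1 exons was the lower on 21 of 27 scaffolds, equal on 1 and higher on 5, a difference of -8.41 ± 11.1 bases (SD, n = 27). Against 2-2 exons it was the lower on 17 and the higher on 10 scaffolds, by -4.63 ± 14.0 bases. The mean differences were smaller than their SD, which gives the spread of single scaffolds and not the uncertainty of the mean. The AUGUSTUS scores of the exons, which are the authors' values, were alike, with means of 0.957 ± 0.147 for 1-1, 0.956 ± 0.139 for 0-0 and 0.952 ± 0.160 for 2-2 exons (SD over exons).

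The share of 1-1 exons differed between scaffolds. Over the 27 scaffolds with at least 100 genes, which carried 4470 of the 5819 exons, it was 8.24 ± 1.22% (SD, n = 27). The most 1-1 exons lay on scaffold01012 (409 exons, 9.37% of its internal exons, 95% Wilson interval 8.54 to 10.3%), scaffold00366 (372 exons, 7.53%, 6.83 to 8.30%) and scaffold00012 (340 exons, 9.06%, 8.19 to 10.02%). The lowest share was that of scaffold00629, with 163 of 2998 exons (5.44%, 4.68 to 6.31%), and the highest that of scaffold00092, with 168 of 1599 (10.5%, 9.10 to 12.1%). Phase 1 introns made up 24.2% of the coding introns of scaffold00629 and 31.7% of those of scaffold00092, and the ratio to the expectation within genes was 0.882 on the former and 1.02 on the latter. The plus strand held 2916 and the minus strand 2903 of the 1-1 exons, with shares of 8.17% and 8.03%.

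In genes with more than 1 predicted transcript, most 1-1 exons recurred with the same ends in another transcript. This held for 140 of 170 such exons in these genes (82.4%, 95% Wilson interval 75.9 to 87.3%). Of the 170, 8 (4.71%, 2.40 to 9.01%) lay whole within an intron of another transcript. For exons that did neither, no further class is given. For 0-0 exons 8 of 383 (2.09%, 1.06 to 4.07%) and for 2-2 exons 4 of 118 (3.39%, 1.33 to 8.39%) lay within such an intron, and these intervals overlapped that of the 1-1 exons.

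Runs of 1-1 exons held 415 different stretches of 3 lengths in a row, and 3 of them (0.723%, 95% Wilson interval 0.246 to 2.10%) occurred in 2 genes, each time on different scaffolds. For 0-0 exons 66 of 3493 stretches (1.89%, 1.49 to 2.40%) and for 2-2 exons 2 of 163 (1.23%) occurred in more than 1 gene. The intervals of the 1-1 and 0-0 shares overlapped, and a class with more stretches has more chances of a match. The lengths were 102, 69 and 162 bases in g429 and g682, 72, 123 and 39 bases in g2641 and g8345, and 69, 51 and 36 bases in g2709 and g10228, all chosen after their values were seen. No stretch of the unit of g3986 or of the row of g26 was among them.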

How the data were processed

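No library values were used; the groups of the 18 libraries come from the labels. TopHat 1.3.3 and Cufflinks are named in the submitters' processing notes. The authors deposited gene models that name AUGUSTUS as their source; not given in the sources used here are its version, settings and evidence and the assembly, and the score it wrote was deposited without a description. From coordinates and phases, internal coding exons of each gene's longest coding sequence were classed by intron phase with Python 3.11.15, NumPy 2.4.6 and SciPy 1.17.1 (figures: matplotlib 3.10.9). Expected numbers are exact means over all orders of a gene's intron phases. The code was tested on simulated models. No p-value was made, since models have no replicates and exons of 1 gene share their source. Spread is the SD over 27 scaffolds with at least 100 genes. This SD shows how single scaffolds differ and is not the error of their mean, so a mean within it can still be a steady difference. Wilson intervals cover counting error only, with exons or pairs taken as independent. Members, lists and alternatives were chosen with earlier results of these data known. The main values were recomputed under 10 alternative choices of models or exons, the ratios of single exons also with phases ordered separately in the first and the last part of a gene's introns, and the equal-length shares also with lengths within 3 bases; length bins, distances, parts of the coding sequence and shared stretches were not recomputed. The splits by long and short exons and by flanking introns were added after seeing the data. Named genes were the 5 with the most 1-1 exons, longest runs, most equal pairs, longest equal rows and largest shares of at least 8 internal exons (ties taken in file order, so a tied gene can be left out), and the 3 scaffolds with the most.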

Additional observations from a re-analysis of the deposited data

How the results depend on the processing

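Of 166 values under 12 alternatives, 10 of them run on every main value, 152 moved by less than the Wilson interval (shares) or 1 SD between scaffolds (other values), and 14 moved further; alternatives overlap and several leave out few models. Without the 20 genes with the most 1-1 exons, the 1-1 share was 7.89%. In the 5748 models whose coding segments had a mean score of 0.95 or more, the median 1-1 exon measured 105 bases, 45.7% of 1-1 exons stood in runs, and equal pairs made up 2.09% for 0-0 and 2.32% for 2-2 exons. The share in runs was 46.6% in genes with at least 8 coding introns, 46.1% for exons of any length, 42.4% for exons of 45 to 300 bases and 42.9% without the 20 genes. Equal pairs of 0-0 exons made up 2.16% at any length and 2.56% at 45 to 300 bases. With lengths within 3 bases counted as equal, the shares were 6.41% for 1-1, 6.19% for 0-0 and 8.07% for 2-2 exons, or 1.22, 1.14 and 1.58 times those between genes. The cause of these moves was not tested. The 1-1 ratio to the expectation ranged from 0.978 to 0.992 under the alternatives that change models or exons. A change of side of 1 was seen for the 0-0 ratio at 45 to 300 bases (1.00) and for neighbouring 1-1 exons at the score of 0.95 (1.01). The long-minus-short difference of 1-1 exons, a value chosen after seeing the data, ranged from 0.0790 to 0.114, and the difference of flanking introns from 1-1 to 0-0 exons, chosen likewise, from -9 to -7 bases. No paired analysis was possible because gene models have no libraries or replicate numbers. Depth is unknown, and the values carry any error of the prediction.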
